A study of Mus musculus with 10 samples.

Results

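Truncating mutations in 6 genes, Dgkb, B4gat1, Htr1f, Ankrd35, Slc19a1 and Astn2, were examined in cultured organoids of the mouse proximal colon. The genes were chosen by name from the exome mutation lists because each carried a frameshift or a stop-gain and lay outside the cancer-related, chromatin and sensory receptor genes that the lists also hold. They held 7 of the 163 listed mutations and were 6 of the 156 listed genes. Of these 7, 4 were stop-gains and 3 were frameshifts, and no missense mutation was listed in any of the 6 genes (0 of 7). Each gene was chosen for a truncating mutation, which left little room for missense here. Over all genes 151 of the 163 were missense. By the choice of genes outside the cancer-related ones, none of the 7 carried the authors' mark for the COSMIC catalogue of cancer genes (0 of 7). Of all 163 listed mutations, 7 carried it (4.29%).

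The organoids came from male mice of C57BL/6 background, about 40 days old, with a silent heterozygous BrafV600E allele that Cre recombinase switches on. The BrafV600E group had 3 cultures, numbered 1 to 3, that received Cre from a lentivirus, were cultured for 5 months and then spent 3 weeks in Base medium, which lacks the stem-cell niche factors. The long-term empty-vector group had 2 cultures with the lentiviral backbone alone and so the allele still silent, number 1 cultured for 12 months and number 3 for 14 months, each followed by 3 weeks in full medium. The labels describe 5 further empty-vector cultures of 2 or 5 months, which were not analysed here. Oncogene, medium and culture time all changed together between the 2 groups, and their effects cannot be told apart. Across the groups, both cultures numbered 1 share the name BRAF1 and both numbered 3 the name BRAF3, and the labels do not say whether such a name marks the same mouse.

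A stop-gain turns a codon for an amino acid into a stop codon, and a frameshift inserts or removes bases so that all later codons are read in another frame, usually up to an early stop. Either can leave a shortened protein, or little protein at all where the cell degrades the transcript. How much is lost depends on where the change lies in the coding sequence and on whether the other copy of the gene is intact. The lists give a position, a base change and a p-value for each mutation, but neither the read depth nor the share of mutant reads. The number of copies hit and the fraction of cells that carried the mutation are therefore unknown. Positions are on GRCm38, listed bases were taken as those of the forward strand, and the place along a gene is given as a percent of its RefSeq span from the 5' end, introns included. Such a percent is a place in the gene, not in the protein.

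Dgkb was the only one of the 6 genes listed in more than 1 culture. Over all lists 3 of 156 genes were (1.92%), Dgkb among them. The Dgkb pair was known when the genes were chosen, so its recurrence is a description and was not tested against that share. Dgkb encodes diacylglycerol kinase beta, which converts the lipid messenger diacylglycerol to phosphatidic acid. This conversion ends signals that run through protein kinase C and the Ras activators of the RasGRP family. The enzyme is best known from neurons of the striatum. The gene lies on the forward strand of chromosome 12 from 37880169 to 38634239. BrafV600E culture 3 carried a frameshift at position 38630584, listed as the insertion of an A. The 14-month empty-vector culture carried the stop-gain G38139425T, where the name gives the reference base, the position on chromosome 12 and the listed base. Both cultures with a Dgkb mutation share the name BRAF3, and whether that name marks the same mouse is not stated. Dgkb was in neither the lists of BrafV600E cultures 1 and 2 nor that of the 12-month culture.

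The 2 Dgkb mutations lay far apart in the gene. The frameshift of BrafV600E culture 3 lay at 99.5% of the span, 3655 bp before the gene's 3' end. The stop-gain of the 14-month culture lay at 34.4%, with 494814 bp of the gene after it. They were 491159 bp apart, or 65.1% of the gene's span. Without exon positions, the share of the kinase that each change removes was not determined. A G-to-T change on the coding strand can give a stop codon from 3 codons of the standard genetic code, which encode glutamate or glycine, so the codon lost in the 14-month culture encoded 1 of these.

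Each Dgkb mutation was among the better supported ones of its own list. The frameshift had an authors' p of 7.65e-10 and ranked 12th of 46 mutations in BrafV600E culture 3. The stop-gain had an authors' p of 4.91e-09 and ranked 8th of 40 in the 14-month culture. On the -log10 scale the frameshift had 9.12, above the median of 5.70 over the list of BrafV600E culture 3. The stop-gain had 8.31, above the median of 4.08 over the 14-month list. Both passed a filter at 1e-05, which 89 of all 163 listed mutations passed (54.6%).

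**Figure D1:**
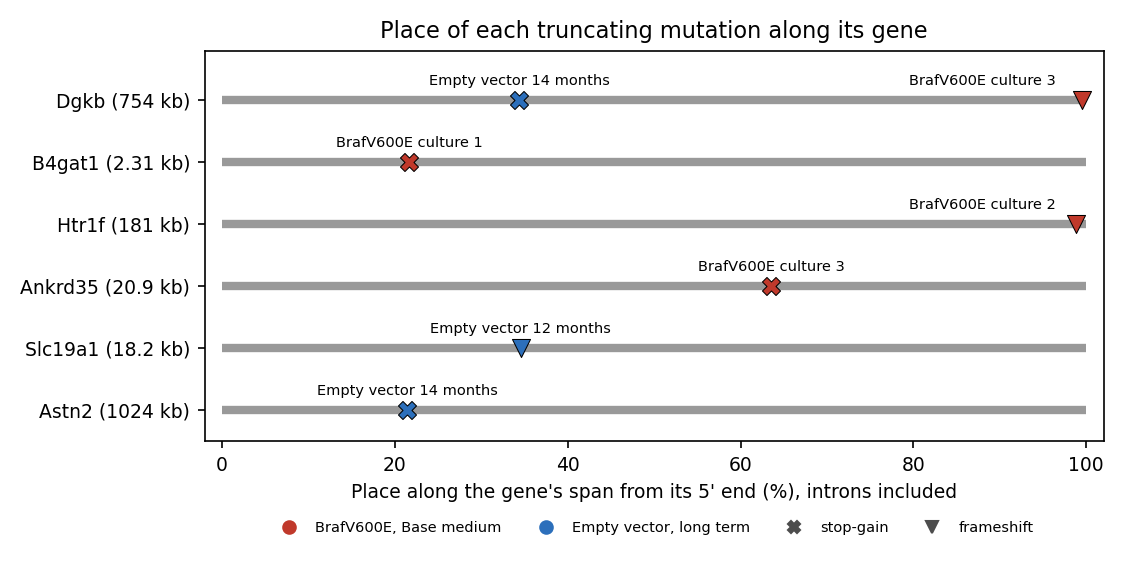
Each horizontal bar is 1 gene drawn to the same length, with its genomic span in kb beside the name; the x axis gives the place from the 5' end in percent of the span, introns included. Crosses are stop-gains and triangles are frameshifts, red for BrafV600E cultures in Base medium and blue for long-term empty-vector cultures; the Dgkb pair sits at 99.5% (BrafV600E culture 3) and 34.4% (14 months).

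B4gat1 carried the best supported of the 7 mutations. It encodes a glucuronyltransferase of the Golgi that primes the sugar chain through which dystroglycan on the cell surface binds laminin of the basement membrane, and loss of the human gene causes a congenital muscular dystrophy. BrafV600E culture 1 had the stop-gain G5039325T on chromosome 19, in a forward-strand gene of 2309 bp from 5038826 to 5041134. It lay 499 bp from the gene's 5' end (21.6%), so that 1809 bp of the gene followed it. With a G-to-T change on the coding strand, the codon lost was again 1 for glutamate or glycine. The authors' p of 1.3e-21 was the smallest of the 31 in that culture and ranked 11th of all 163. B4gat1 was not in the other 4 lists.

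Htr1f, hit in BrafV600E culture 2, encodes the serotonin receptor 1F, which couples to inhibitory G proteins and lowers cyclic AMP. The frameshift was listed as the deletion of a T at chromosome 16 position 64926926, with A as the reference base. Whether a listed position is that of the lost base or of the base before it is not stated. The gene runs on the reverse strand from 64924729 to 65105784, so the mutation lay at 98.8% of the span and 2197 bp before the 3' end. Its authors' p of 1.44e-05 ranked 17th of 22 in that culture. This was the only truncating mutation in the list of culture 2 (1 of 22). Htr1f and, in BrafV600E culture 3, Dgkb were thus both hit in the last 2% of the gene's span. The other 5 mutations lay between 21.4% and 63.5%. With introns counted, these places do not show how much of each coding sequence lay before the mutation.

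Ankrd35 carried a second truncating mutation of BrafV600E culture 3 beside the one in Dgkb. The gene encodes a protein with ankyrin repeats, a common fold for binding other proteins, and has no well established function. The stop-gain C96683408T on chromosome 3 lay at 63.5% of a forward-strand gene of 20904 bp (96670131 to 96691034). A C-to-T change on the coding strand gives a stop codon from 3 codons, for glutamine or arginine. The authors' p was 0.00474, which ranked 41st of 46 in the culture, so this stop-gain was among the weakly supported mutations of its list.

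Slc19a1 was hit in the 12-month empty-vector culture. It encodes the reduced folate carrier, the main route by which folate, a vitamin needed for making nucleotides, and antifolate drugs such as methotrexate enter cells. The frameshift was listed as the deletion of a C at chromosome 10 position 77038543, again with A as the reference base. It lay at 34.5% of a forward-strand gene of 18164 bp (77032269 to 77050432). Measured from the annotated start sites of the gene, of which RefSeq has 2, the place was 32.8% or 31.0%. The authors' p of 0.0105 was the largest of the 7, and it ranked 19th of 24 in the culture.

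Astn2, with Dgkb, was hit in the 14-month empty-vector culture. It encodes astrotactin 2, a membrane protein that regulates the surface level of the neuronal adhesion protein astrotactin 1 during migration of neurons along glia. The stop-gain A66185455T lay on chromosome 4 at 21.4% of a reverse-strand gene of 1023735 bp (65380803 to 66404537), with 804652 bp of the gene after it. On the coding strand this is a T-to-A change, which can produce a stop codon from 4 codons, for leucine, tyrosine or cysteine. The authors' p was 0.000735, ranked 27th of 40.

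Each of the 5 lists held 1 or 2 of the 7 mutations. BrafV600E cultures 1, 2 and 3 had 1, 1 and 2, and the 12-month and 14-month empty-vector cultures had 1 and 2. The means were 1.33 ± 0.577 for BrafV600E (SD, n = 3) and 1.5 ± 0.707 for the long-term empty vector (SD, n = 2), and the groups overlapped. As a share of the list these were 3.23%, 4.55% and 4.35% in the BrafV600E cultures and 4.17% and 5.0% in the 12-month and 14-month cultures. A count of 1 has an exact Poisson 95% interval of 0.0253 to 5.57 and a count of 2 one of 0.242 to 7.22, and these overlap widely. Because the mutations chose the genes, the counts are not random ones, the intervals are a description only, and no test was run. Over all genes, truncating mutations made up 12 of 163 (7.36%), with 6 of 99 in the BrafV600E lists (6.06%) and 6 of 64 in the long-term lists (9.38%). The other 5 truncated genes were Picalm, Smarcc1, Vmn2r43, Vmn2r33 and Mrgpra6.

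The lists with 2 of these mutations were those of both cultures numbered 3. Culture 3 of the BrafV600E group and culture 3 of the empty-vector group (14 months) each had 2, while both cultures numbered 1 had 1. These were also the longest lists, with 46 and 40 mutations, against 31, 22 and 24 in the remaining cultures. The part of list length in these counts was not tested. The smallest distance from any of the 7 to another listed mutation of the same culture was 3398656 bp, between the Ankrd35 stop-gain and Spag17; B4gat1 and Slc19a1 had no other listed mutation of their culture on the same chromosome.

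**Figure D2:**
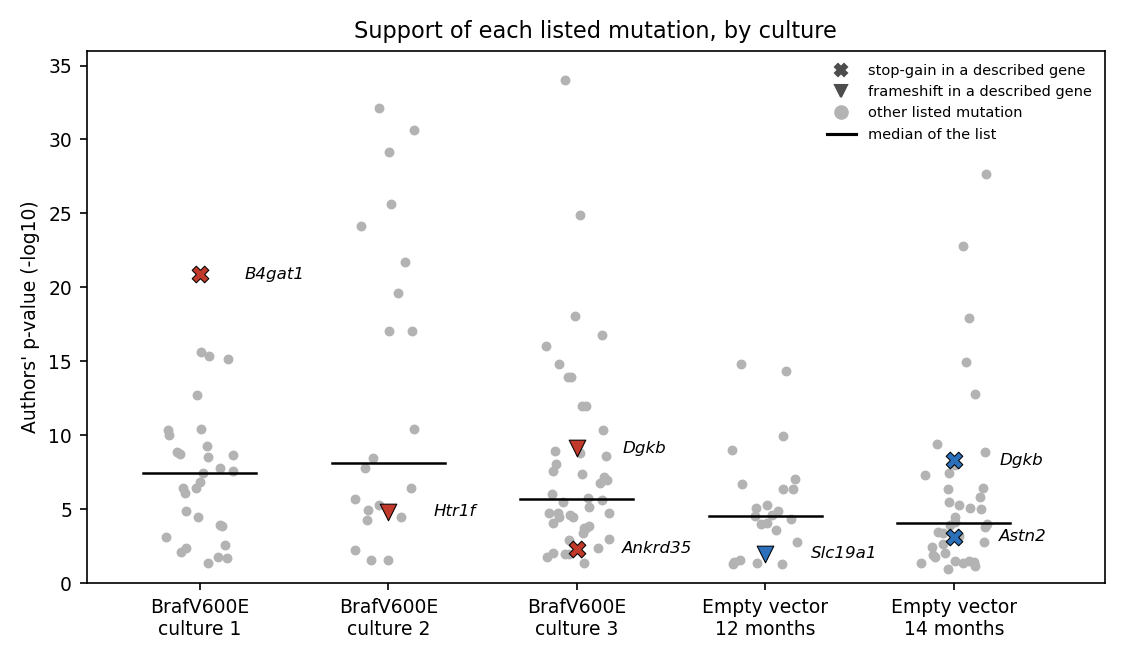
The y axis gives the authors' p-value of each listed mutation on the -log10 scale and the x axis the culture; grey points are other mutations, black lines the medians of the lists, and crosses (stop-gains) and triangles (frameshifts) the 7 described mutations. B4gat1 stands at the top of its list at 20.9, both Dgkb mutations lie above their medians, and Htr1f, Ankrd35, Slc19a1 and Astn2 lie below theirs.

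Support for the 7 mutations spanned most of the range of the table. The -log10 p was 20.9 for B4gat1, 9.12 for Dgkb in BrafV600E culture 3, 8.31 for Dgkb after 14 months, 4.84 for Htr1f, 3.13 for Astn2, 2.32 for Ankrd35 and 1.98 for Slc19a1. The median of these was 4.84, against 5.51 for all 163 listed mutations and 5.51 for the 5 other truncating mutations. Those 5 were all frameshifts, since all 4 stop-gains of the lists lay in the 6 genes. Set against the median of its own list, 3 of 7 were better supported, those in B4gat1 and Dgkb. At an authors' p of 0.001 or below 5 of 7 remained, beside 125 of 163 over the table (76.7%), and at 1e-05 or below 3 of 7 remained, beside 89 of 163 (54.6%). Stop-gains had a median of 5.72 (n = 4) and frameshifts one of 4.84 (n = 3), and their ranges of 2.32 to 20.9 and 1.98 to 9.12 overlapped. Because depth and mutant read shares are unknown, a weaker p was not separated from fewer reads or fewer mutant cells.

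The 4 stop-gains arose by 3 kinds of base change. Written from the pyrimidine of the base pair, B4gat1 and the Dgkb stop-gain were C-to-A changes, Ankrd35 was C-to-T and Astn2 was T-to-A. The C-to-A class made up 18 of 30 substitutions in BrafV600E culture 1, the culture of B4gat1 (60.0%, exact 95% interval 40.6 to 77.3%), and 10 of 38 in the 14-month culture, that of Dgkb (26.3%, exact 95% interval 13.4 to 43.1%). The C-to-T class held 9 of 44 in BrafV600E culture 3, the culture of Ankrd35 (20.5%, exact 95% interval 9.80 to 35.3%). The T-to-A class of Astn2 held 6 of 38 in the 14-month culture (15.8%, exact 95% interval 6.02 to 31.3%). The intervals cover counting error only. In B4gat1 and Dgkb of the 14-month culture the stop-gain thus belonged to the most frequent class of its list, and in Ankrd35 and Astn2 it did not. The 3 frameshifts were all changes of a single base, which the table lists as T lost in Htr1f, C lost in Slc19a1 and A gained in Dgkb.

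**Figure D3:**
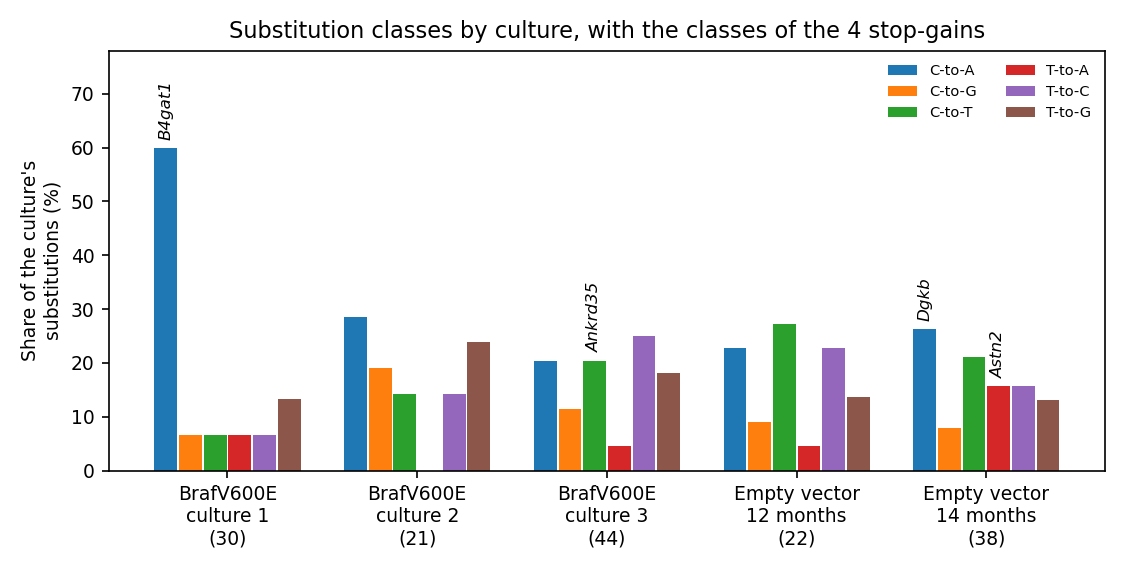
Bars give the share of each of 6 substitution classes, written from the pyrimidine of the base pair, among the substitutions of each culture, whose number is in parentheses under the culture. A gene name above a bar marks the class of its stop-gain; B4gat1 stands on the 60.0% of C-to-A changes in BrafV600E culture 1.

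The 6 genes differed widely in length. Astn2 spans 1024 kb and Dgkb 754 kb, longer than 99.7% and 99.5% of 21900 protein-coding genes. Htr1f, at 181 kb, was longer than 94.9%. Ankrd35 at 20.9 kb and Slc19a1 at 18.2 kb were near the median gene of 17.1 kb, being longer than 55.3% and 51.6%, and B4gat1 at 2.31 kb was longer than 12.8%. Among the 155 listed genes that matched RefSeq, Astn2 and Dgkb ranked 3rd and 4th by span, and the median over the 149 others was 24.3 kb. Span counts introns, which exome sequencing mostly does not read, and coding length was not used here. At none of the 7 positions did another annotated gene overlap (0 of 7).

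**Figure D4:**
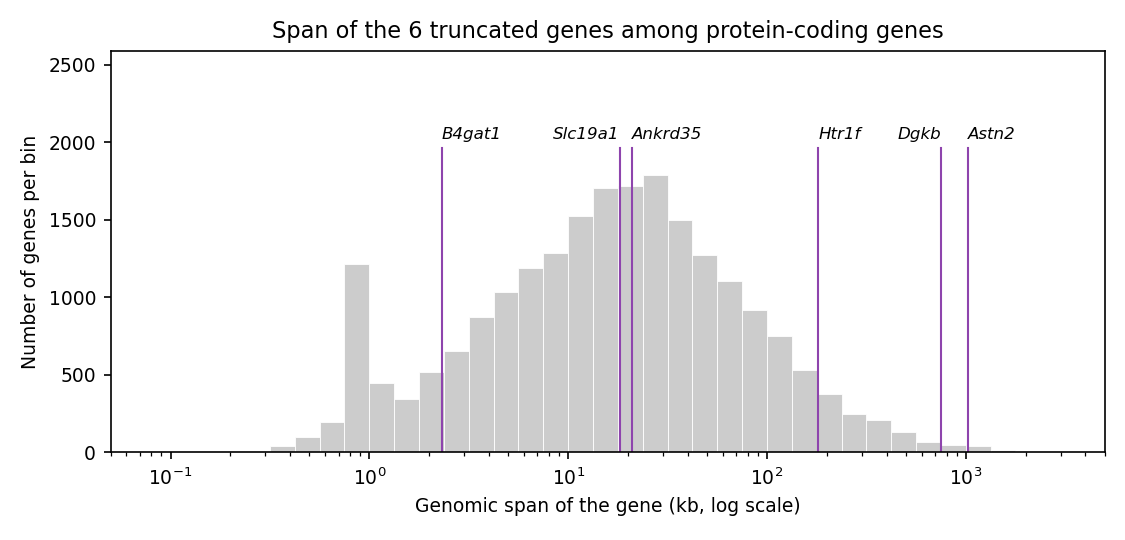
Grey bars count the 21900 protein-coding genes of RefSeq by genomic span in kb on a log axis, and vertical lines mark the 6 genes. Astn2 (1024 kb) and Dgkb (754 kb) lie at the right edge, Ankrd35 and Slc19a1 near the middle, and B4gat1 (2.31 kb) on the left.

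Genes related to these 6 by function or family were looked up in the same lists. Of 139 partners in 6 related groups, the 6 genes themselves left out, 1 was listed (0.719%), namely Unc13c, beside 155 of 21900 protein-coding genes (0.708%). The groups were drawn up with earlier results of these data known and were not complete. The share of 0.719% therefore covers only the genes drawn up and was not tested against 0.708%. The counts below include the described gene of each group. The group of diacylglycerol kinases and diacylglycerol-binding effectors had 2 of 29 listed. Unc13c, a presynaptic protein that primes vesicles for release and binds diacylglycerol, had the missense mutation T73667643A on chromosome 9 in the 14-month empty-vector culture, the culture of the Dgkb stop-gain. Its authors' p was 3.81e-07, ranked 12th of 40. No other diacylglycerol kinase, protein kinase C or RasGRP gene of that group was listed in any culture. In each remaining group, only the described gene was listed among the genes drawn up. These were dystroglycan and its glycosylation enzymes (B4gat1, 1 of 19), serotonin receptors (Htr1f, 1 of 14) and folate transport and one-carbon metabolism (Slc19a1, 1 of 26). The others were astrotactins and other genes with a membrane attack complex/perforin domain (Astn2, 1 of 12) and ankyrin repeat domain genes (Ankrd35, 1 of 45). Listed genes that the groups left out include Folh1 (folate hydrolase 1) in BrafV600E culture 3, at a -log10 p of 7.56. Also left out were the ankyrin repeat genes Ankk1 (BrafV600E culture 2, 4.93) and Arap3 (12-month culture, 1.32). So was Dmd (14-month culture, 2.45), whose protein binds dystroglycan. The lists do not measure expression, so whether colon organoids use these genes was not determined.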

How the data were processed

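Genomic DNA of organoid cultures was sequenced as exome libraries (TruSeq, paired ends, Illumina HiSeq), per the labels' protocols. The submitters' processing notes name the builds mm10 and GRCm38. Aligner, caller, filters and comparator culture: not given in the sources used here. Deposited by the authors was 1 table of 163 mutations in 5 of 10 cultures with a p-value for each mutation whose test is not stated. It holds no read counts, so depth is unknown.

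Cultures were matched to groups by their names and titles. Mutations in the 6 genes were taken by symbol, and each symbol matched 1 RefSeq gene of GRCm38.p6 that contains the listed position. Strand came from the RefSeq promoter table. The place was counted on the gene's own strand. Codons that a substitution can turn into a stop were read from the standard genetic code (Biopython 1.88). Ranks run from the smallest authors' p. Counts have exact Poisson and shares exact Clopper-Pearson 95% intervals (SciPy 1.17.1), which cover counting error only. Long-term cultures are described as biological replicates, per the labels; for the BrafV600E cultures separate mice are not stated.

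The genes and the related groups were chosen with earlier results of these data known, so no test was run. The same holds for the rule for genes named, the 6 genes and every listed gene of the related groups. Folh1, Ankk1, Arap3 and Dmd were named outside that rule, after seeing the data. Exon positions, codons and surrounding sequence were not used here. Alternatives were p filters, kind of truncation, scale, start site, a block on the shared culture numbers and leaving out each culture.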

Additional observations from a re-analysis of the deposited data

How the results depend on the processing

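The difference in truncating mutations of the 6 genes per culture, BrafV600E minus long-term empty vector, was -0.17, smaller than the spread between cultures, and had no stable direction. It ran from -0.667 to 0.333 when each culture was left out in turn. It was -1.0 with all truncating mutations counted, cancer-related, chromatin and sensory receptor genes included. Per month in culture it was 0.154, a scale that divides the BrafV600E counts by fewer months. With a replicate block that pairs cultures 1 and 3 of both groups the difference was 0; these cultures share a number, and the labels state no shared mouse. The number of the 6 genes listed in more than 1 culture was 1, Dgkb, at both p filters. It ran from 0 to 1 over left-out cultures, with 0 without BrafV600E culture 3 and 0 without the 14-month culture, and it was 0 with stop-gains only and 0 with frameshifts only, since Dgkb had 1 of each. The place of the Slc19a1 frameshift was 32.8% or 31.0% from the annotated start sites, against 34.5% from the 5' end of the span. The start-site setting and those of the overall truncating share were added after seeing the data. In all, 37 of the alternative values were counted as within the spread or tolerance set for them and 8 were not. Counted among the 37 is the median rank within the culture's list, 67.5%. It is on another scale than the -log10 p and cannot be judged by that spread. The place along the coding sequence was planned and not run, because no exon annotation was used here. As depth is unknown, a mutation missing from a list may have been present and unseen.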
